A study of Mus musculus with 4 samples.

Results

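Cubn, Amn, Lrp2, Dab2, S100g, Tfrc and Hnf4a were examined as 7 genes of the absorptive visceral endoderm, the epithelium that covers the early mouse embryo and later lines the yolk sac. They were chosen by name as uptake receptors, their adaptor, a calcium-binding protein, the transferrin receptor and a transcription factor of this tissue, and all 7 were found among the 24421 genes of the count table. Each had well over the minimum of 10 reads that a gene needed in at least 1 library to be tested, and 14393 genes of the table met it.

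Polyadenylated RNA of whole ICR mouse embryos was sequenced in 4 libraries, and reads were counted per gene in a strand-specific way. The wild-type (WT) libraries were 1 from embryonic day 7.5 (WT E7.5) and 1 from embryonic day 8.5 (WT E8.5). The other 2 libraries, KO1 and KO2, came from E8.5 embryos of the genotype Ddx6 -/-, a constitutive loss of the RNA helicase DDX6 made by deleting a floxed exon with the CAG-Cre line. By the study's account both KO libraries were pools, KO1 of an embryo without and an embryo with head folds and KO2 of embryos without head folds, so the KO group mixed morphological stages. Genotypes were read from extraembryonic tissue or yolk sac, and how much visceral endoderm stayed with each embryo is not stated in the sources used here.

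Total counts lay between 8198402 in KO1 and 12562640 in WT E8.5, and 16511 to 17112 genes had a read. Ddx6 had 2943 reads in WT E7.5, 5715 in WT E8.5, 706 in KO1 and 929 in KO2, and its log2 changes from WT E8.5 were -2.47 and -2.61. Both KO libraries were thus below both WT libraries for the deleted gene, and its other exons can still give reads.

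The visceral endoderm feeds the embryo before the placenta works. It takes proteins out of the surrounding fluid through receptors on a brush border and passes them by clathrin-coated vesicles to lysosomes, where they are broken down. Cubilin (Cubn) is a large receptor with no membrane anchor of its own, and amnionless (Amn) anchors it and carries it to the cell surface. Megalin (Lrp2) is a giant lipoprotein receptor that works beside the cubilin and amnionless pair, and Dab2 is the adaptor that links megalin to clathrin. S100g encodes calbindin-D9k, a small cytosolic calcium-binding protein of calcium-transporting epithelia. Tfrc encodes the transferrin receptor, which brings in iron in most dividing cells and at a high level in erythroid precursors. Hnf4a encodes a nuclear receptor needed for the mature gene programme of the visceral endoderm, including its secreted apolipoproteins and carriers.

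The promoters of S100g, Cubn and Hnf4a are shown because these genes stood apart in the counts: S100g had the lowest KO values against WT, Cubn was the most abundant, and Hnf4a is the regulator. Each run is the 250 bases before a RefSeq start on GRCm38.p6, printed 5′ to 3′ on the gene's strand. Capitals mark matches on either strand to CAAAGT, a core of HNF4 motifs, to AGATAA, bound by GATA factors, or to TGTTTA, bound by FOXA factors, and a match is a description of the letters only.
S100g, chrX:162964600-162964849, minus strand: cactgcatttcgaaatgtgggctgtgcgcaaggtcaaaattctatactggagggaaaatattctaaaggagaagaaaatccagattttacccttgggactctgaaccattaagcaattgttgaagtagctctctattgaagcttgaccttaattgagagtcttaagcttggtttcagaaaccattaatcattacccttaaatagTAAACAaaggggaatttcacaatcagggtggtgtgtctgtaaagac
Cubn, chr2:13491877-13492126, minus strand: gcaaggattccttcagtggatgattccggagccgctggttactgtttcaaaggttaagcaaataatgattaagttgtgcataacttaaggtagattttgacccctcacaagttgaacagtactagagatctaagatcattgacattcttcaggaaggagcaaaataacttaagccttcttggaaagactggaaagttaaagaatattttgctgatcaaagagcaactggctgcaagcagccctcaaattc
Hnf4a, first start, chr2:163506607-163506856, plus strand: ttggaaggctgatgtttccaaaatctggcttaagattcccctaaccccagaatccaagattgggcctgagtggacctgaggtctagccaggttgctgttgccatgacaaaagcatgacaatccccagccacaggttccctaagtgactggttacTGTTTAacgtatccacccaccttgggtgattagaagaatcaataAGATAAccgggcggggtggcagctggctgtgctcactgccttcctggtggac
The S100g window held 1 FOXA match on the reverse strand, 46 bases before the start. The Cubn window held none of the 3 strings. The first Hnf4a window held a FOXA match at 96 bases and a GATA match at 52 bases before the start. Among the windows not printed, that of Lrp2 held CAAAGT at 154 bases, the first of Dab2 held CAAAGT at 237 bases, and the second of Dab2 held a reverse FOXA match at 60 bases. The window of Amn and both of Tfrc held none of these 3 strings. These strings are common: CAAAGT was in 12.6% of all 32851 promoter windows of this length, AGATAA in 9.99% and TGTTTA in 12.0%.

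In the WT libraries the uptake machinery was abundant. Levels between genes were compared as RPKM, reads scaled to the library total and divided by exon length, with lengths from the GENCODE M21 annotation, which is not the one the reads were counted on. Cubn (chromosome 2, 13276338 to 13491813 on GRCm38, reads over all its exons) was the highest of the 7 genes in every library, with 163 RPKM in WT E7.5, 146 in WT E8.5, 112 in KO1 and 106 in KO2. It ranked 236th and 223rd of 13874 genes in WT E7.5 and WT E8.5, and 298th and 332nd in KO1 and KO2.

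Amn (chromosome 12, 111271095 to 111276426) had 149 RPKM in WT E7.5, 70.0 in WT E8.5, 61.6 in KO1 and 79.7 in KO2, so its KO values lay around that of WT E8.5 and far from WT E7.5. Lrp2 (chromosome 2, 69424340 to 69586065) had 25.1, 44.9, 38.2 and 29.9 RPKM in the same order of libraries. The Lrp2 level was lowest in WT E7.5, highest in WT E8.5 and between them in both KO libraries. Dab2 (chromosome 15, 6299788 to 6440712) had 138, 105, 96.4 and 91.4 RPKM, with both KO libraries under both WT libraries.

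S100g (chromosome X, 162961992 to 162964599) had 55.0 RPKM in WT E7.5 and 76.5 in WT E8.5, but 9.68 in KO1 and 9.23 in KO2. Its rank among all genes was 921st in WT E7.5 and 498th in WT E8.5, against 5023rd and 5222nd in the KO libraries. Tfrc (chromosome 16, 32608920 to 32632794) had 22.5, 30.6, 18.6 and 22.1 RPKM, and KO2 lay just under WT E7.5. Hnf4a (chromosome 2, 163506808 to 163572910) had 38.0, 26.6, 25.4 and 26.1 RPKM, with WT E8.5 and the KO libraries close together.

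The order of the genes by RPKM changed with stage and genotype. In WT E7.5 it ran Cubn, Amn, Dab2, S100g, Hnf4a, Lrp2 and Tfrc, and in WT E8.5 Cubn, Dab2, S100g, Amn, Lrp2, Tfrc and Hnf4a. In both KO libraries it ran Cubn, Dab2, Amn, Lrp2, Hnf4a, Tfrc and S100g, and the 2 KO values of neighbours in that order did not overlap. S100g thus stood 3rd of 7 in WT E8.5 and last in the KO libraries. With 1 library a stage, neighbours in the WT orders have no replicate spread to be set against.

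**Figure D1:**
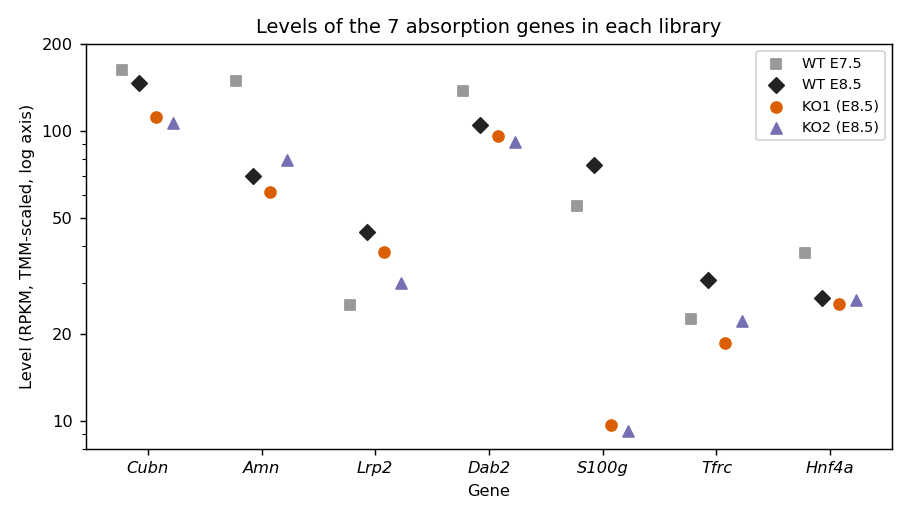
Level of each of the 7 genes in each library as RPKM on a log axis (grey squares WT E7.5, black diamonds WT E8.5, orange circles KO1, purple triangles KO2), 1 point per library and no error bars. The S100g points separate, with 55.0 and 76.5 RPKM in the WT libraries and 9.68 and 9.23 in the KO libraries, while the points of Hnf4a other than WT E7.5 nearly coincide.

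The WT libraries were compared to see how the genes moved over a day of normal development, with no test since each stage had 1 library. Changes are differences of log2 CPM, the reads scaled to a common library total, so a difference of 1 is a 2-fold change. Lrp2 was higher in WT E8.5 than in WT E7.5 by 0.84, S100g by 0.47 and Tfrc by 0.44. The change was -1.09 for Amn, -0.51 for Hnf4a, -0.40 for Dab2 and -0.16 for Cubn. Amn was the 1 gene of the 7 below -1, where 7.82% of all tested genes were, and 0 of the 7 were above 1, where 12.2% of all genes were. The median of the 7 was -0.16, beside -0.02 over all 14393 genes.

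The comparison at the same embryonic day asked how the genes stood in the E8.5 KO embryos beside WT E8.5, though the KO embryos were less advanced in morphology. S100g was about 8 times lower in both KO libraries. Tfrc, Cubn and Lrp2 were moderately lower, and Hnf4a differed by less than its counting error. In a bulk sample of whole embryos, fewer visceral endoderm cells and less RNA per cell cannot be told apart. Intervals given below are exact Clopper-Pearson 95% intervals of 2 libraries' reads and cover counting error only, not the spread between embryos. The SD beside a mean change is the spread of the 2 KO libraries alone. Both are set against the same WT library, so the SD holds no spread between WT embryos.

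S100g had 314 reads in WT E7.5, 451 in WT E8.5, 39 in KO1 and 54 in KO2. Against WT E8.5 it was 7.65-fold lower in KO1, a log2 change of -2.93 (interval -3.49 to -2.51), and 8.0-fold lower in KO2, a log2 change of -3.0 (-3.48 to -2.64). The mean was -2.97 ± 0.05 (SD, n = 2), and the KO libraries differed from each other by -0.07, with an interval from -0.69 to 0.57. It was the 47th lowest of 14393 genes by mean change. Ctps2 overlaps S100g on the opposite strand without sharing exon bases, and the counting was strand-specific.

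Tfrc had 1657, 2326, 964 and 1662 reads in WT E7.5, WT E8.5, KO1 and KO2. The changes from WT E8.5 were -0.72 (-0.83 to -0.61) in KO1 and -0.47 (-0.56 to -0.38) in KO2, a mean of -0.60 ± 0.18 (SD, n = 2). Each KO library was below WT E8.5 by more than the counting error, and KO1 was the lower. Among markers of primitive erythroid cells, which hold much transferrin receptor, 8 of 11 measured were also lower in both KO libraries by more than 1 on the log2 scale. Their summed level was 77.5 CPM in WT E7.5, 303 in WT E8.5, 43.7 in KO1 and 30.6 in KO2, with the embryonic globin Hba-x at 1221 reads in WT E8.5 and 1 and 0 in the KO libraries and Hba-a1 at 0 in every library. The part of these cells in the Tfrc level was not tested.

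Cubn had 28998, 26884, 13997 and 19354 reads. Its changes from WT E8.5 were -0.39 (-0.42 to -0.36) and -0.46 (-0.49 to -0.44), a mean of -0.43 ± 0.05 (SD, n = 2). The KO libraries were close to each other, and with these read numbers the counting error was small beside the change. Its partner Amn had 3273, 1585, 953 and 1789 reads and changed by -0.18 (-0.30 to -0.07) in KO1 and by 0.19 (0.09 to 0.29) in KO2. The mean of Amn was 0.00 ± 0.26 (SD, n = 2), so the KO libraries lay on opposite sides of WT E8.5 and the sign of the mean carried no direction.

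Lrp2 had 4990, 9226, 5352 and 6087 reads and changed by -0.24 (-0.29 to -0.19) in KO1 and -0.59 (-0.63 to -0.54) in KO2, a mean of -0.41 ± 0.25 (SD, n = 2). Megalin is also made by the early neural plate. Of 8 anterior neuroepithelium markers, 4 were lower in both KO libraries by more than 1, among them Sox1 with 533 reads in WT E8.5, 178 in KO1 and 42 in KO2, and their summed level was 88.4 CPM in WT E7.5, 187 in WT E8.5, 138 in KO1 and 212 in KO2. Otx2, which moved the other way in KO2, had 828, 703, 510 and 2059 reads in WT E7.5, WT E8.5, KO1 and KO2, and so gave most of the 2583 marker reads in KO2. The part of neural tissue in the Lrp2 level was not tested.

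Dab2 had 12040, 9455, 5946 and 8178 reads and changed by -0.12 (-0.17 to -0.07) and -0.20 (-0.24 to -0.15), a mean of -0.16 ± 0.05 (SD, n = 2). Parietal endoderm, which makes basement membrane and also expresses Dab2, had 0 of 11 markers lower by more than 1 in both KO libraries, and its summed marker level was 2315 CPM in WT E7.5, 2190 in WT E8.5, 2580 in KO1 and 3018 in KO2. Hnf4a had 2182, 1578, 1029 and 1536 reads and changed by -0.07 (-0.18 to 0.05) in KO1 and -0.03 (-0.13 to 0.08) in KO2. Both intervals of Hnf4a include 0, and its mean was -0.05 ± 0.03 (SD, n = 2), which became 0.01 when reads were scaled by the total count alone. The antisense gene Hnf4aos shares no exon bases with it.

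Of the 7 genes, 1 (S100g) was lower by more than 1 in both KO libraries, where 1.79% of all tested genes were, and 0 were higher, where 3.44% of all genes were. The median of the 7 was -0.24 in KO1 and -0.46 in KO2, beside -0.01 and 0.00 over all genes. The quasi-likelihood test of edgeR, whose spread came from the 2 KO libraries alone, called 0 of the 7 at an adjusted p of 0.05, as it called 0% of all genes. At an unadjusted p under 0.05 it had 1039 genes, or 7.22%, among them Cubn, S100g and Tfrc. The adjusted p from edgeR was 0.646 for S100g, with a range of 0.0542 to 0.658 over the alternative settings, and 0.669 or above for the other 6.

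DESeq2 called S100g and none of the other 6, where it called 34 genes or 0.236% of all. It gave S100g a log2 change of -3.01 ± 0.58 (SE; 95% interval -4.15 to -1.87) with an adjusted p of 0.000205, so the call of S100g depended on the tool. The difference was in the same direction in 2 of 2 KO libraries. The DESeq2 intervals ran from -0.72 to -0.12 for Cubn, -1.06 to -0.11 for Tfrc, -0.82 to 0.03 for Lrp2, -0.47 to 0.17 for Dab2, -0.52 to 0.55 for Amn and -0.50 to 0.42 for Hnf4a. For these 6 genes the missed threshold does not show that they were unchanged, and the intervals give the changes that remain possible.

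**Figure D2:**
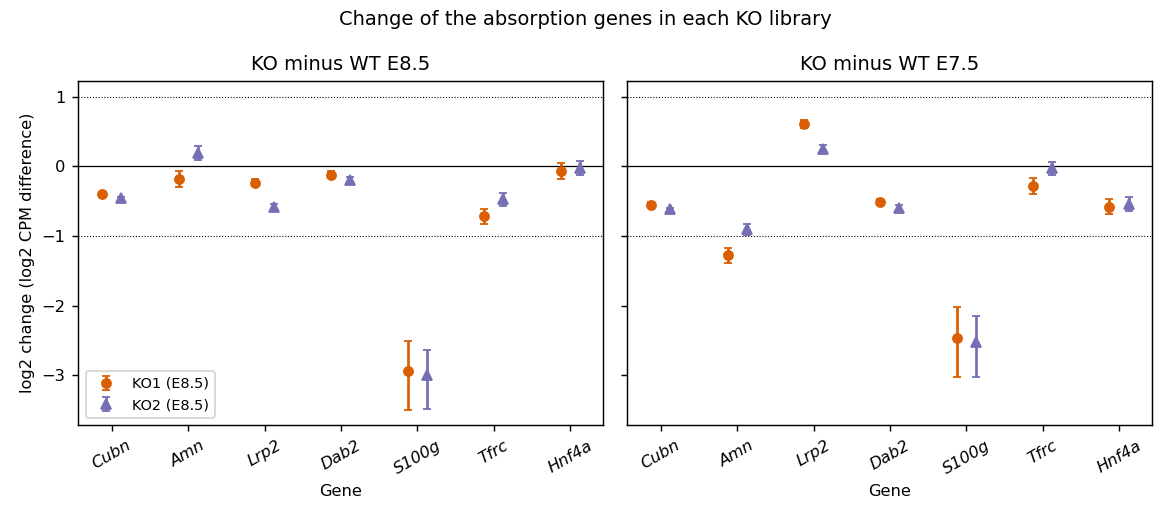
Log2 change of each of the 7 genes in KO1 (orange circles) and KO2 (purple triangles) from WT E8.5 on the left and from WT E7.5 on the right. Bars are 95% counting intervals and dotted lines mark 1 and -1; S100g lies at -2.93 and -3.0 on the left and at -2.46 and -2.53 on the right, and Lrp2 is below 0 on the left and above 0 on the right.

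The WT E7.5 library served as a younger reference, because the KO embryos were delayed in their morphology. S100g was again far lower, by 5.51-fold in KO1 and 5.77-fold in KO2, or -2.46 and -2.53 on the log2 scale, the 67th lowest of all genes by mean. The KO level of S100g was therefore below both WT stages. Amn changed by -1.28 in KO1 and -0.91 in KO2 from WT E7.5, and so stood nearer to WT E8.5. Lrp2 was higher than in WT E7.5, by 0.60 and 0.25, and lay between the stages. Cubn changed by -0.55 and -0.62, Dab2 by -0.52 and -0.59, and Hnf4a by -0.58 and -0.54. Tfrc changed by -0.28 in KO1 and by -0.03 (-0.13 to 0.07) in KO2, the latter within counting error.

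Against WT E7.5, 1 of the 7 (S100g) was lower by more than 1 in both KO libraries, beside 2.7% of all genes, and 0 were higher, beside 6.91%. The median of the 7 was -0.55 in KO1 and -0.59 in KO2, beside 0.02 and 0.07 over all genes. Both comparisons use the same 2 KO libraries, so they are not separate evidence.

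Set against the WT libraries together, 5 of the 7 (Cubn, Dab2, S100g, Tfrc and Hnf4a) had both KO values below both WT values, where 17.6% of all genes did, and 0 had both above, where 18.4% did. The gap was wide for S100g, with at most 4.64 CPM in the KO libraries and at least 26.4 CPM in the WT libraries. It was small for Hnf4a (126 and 128 CPM) and Tfrc (136 and 139 CPM). With plain CPM instead of TMM scaling 3 of the 7 (Cubn, Dab2 and S100g) stayed below, beside 13.6% of all genes. With the WT libraries as 1 group, edgeR called 0 of the 7 and 0% of all genes, with 565 genes at an unadjusted p under 0.05, Cubn and S100g among them. DESeq2 called S100g of the 7 (log2 change -2.81 ± 0.42, SE, adjusted p 2.33e-07) and 0.222% of all genes. The spread in this fit holds a day of development between the WT libraries.

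Markers of the visceral endoderm itself were lower in the KO libraries, and these values stand beside all the results above. Of 14 markers measured, 7 were lower than WT E8.5 by more than 1 in both KO libraries, 0 were higher, and 12 were below both WT libraries. The medians were -0.96 in KO1 and -1.12 in KO2. The 7 were the apolipoprotein genes Apoa1, Apoa2 and Apom, the retinol carrier Rbp4 and the fibrinogen chains Fga, Fgb and Fgg. DESeq2 called 4 of the 14 against WT E8.5 and 7 against both WT libraries, and edgeR called 0 in each. The summed level of the list was 5040 CPM in WT E7.5, 5323 in WT E8.5, 2787 in KO1 and 2685 in KO2, no marker was at 0 in all libraries, and Apoc2, under the minimum, had at most 9 reads. Spink1, which the table has for the older symbol Spink3, changed by 0.44 and 0.46.

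Reads of the 7 genes were therefore also given per 1000 reads summed over all 15 markers of the list, a ratio within each library that does not depend on its depth or scaling. S100g had 5.24 reads per 1000 marker reads in WT E7.5, 6.89 in WT E8.5, 1.67 in KO1 and 1.65 in KO2, which is 0.242 and 0.239 times WT E8.5. The S100g ratio was thus lower in the KO libraries beside a marker sum that was itself lower. Single markers with few reads weigh little in this sum, and some fell nearly as far as S100g. Fga changed by -2.75 and -2.23 from WT E8.5, Fgg by -2.15 and -2.25 and Apoa2 by -1.91 and -2.50. Of the 14 measured, 0 were higher by more than 1 in both KO libraries. With each marker left out in turn, the log2 ratio of S100g to WT E8.5 stayed between -2.12 and -1.98 in KO1 and between -2.13 and -2.01 in KO2.

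The other 6 genes had higher ratios in both KO libraries than in WT E8.5. Hnf4a had 36.4, 24.1, 44.0 and 46.9 reads per 1000 marker reads in WT E7.5, WT E8.5, KO1 and KO2, which is 1.82 and 1.95 times WT E8.5. Cubn had 484, 411, 598 and 592 reads per 1000, or 1.46 and 1.44 times WT E8.5. The factor was 1.68 and 2.26 for Amn, 1.62 and 1.32 for Lrp2, 1.76 and 1.73 for Dab2, and 1.16 and 1.43 for Tfrc. Relative to the marker sum, reads of these 6 genes were thus higher in the KO libraries than in WT E8.5, and those of S100g lower. The marker sum was itself lower in the KO libraries, so any gene that fell less has a higher ratio. The ratios are therefore not separate from the changes above and do not by themselves show a gain of receptor RNA. Against WT E7.5 the Amn factors were 0.746 in KO1 and 1.0016 in KO2. Ratios of Cubn, Lrp2, Dab2, Tfrc and Hnf4a were higher than in WT E7.5 in both KO libraries. Apob alone gave 34.4% to 60.4% of the marker reads. Without Apob the factors to WT E8.5 were 1.91 and 1.87 for Hnf4a, 1.53 and 1.38 for Cubn, and 0.254 and 0.230 for S100g. Amn then had 83.2 reads per 1000 in WT E7.5, 103 in KO1 and 126 in KO2. Its position against WT E7.5 thus depended on Apob.

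**Figure D3:**
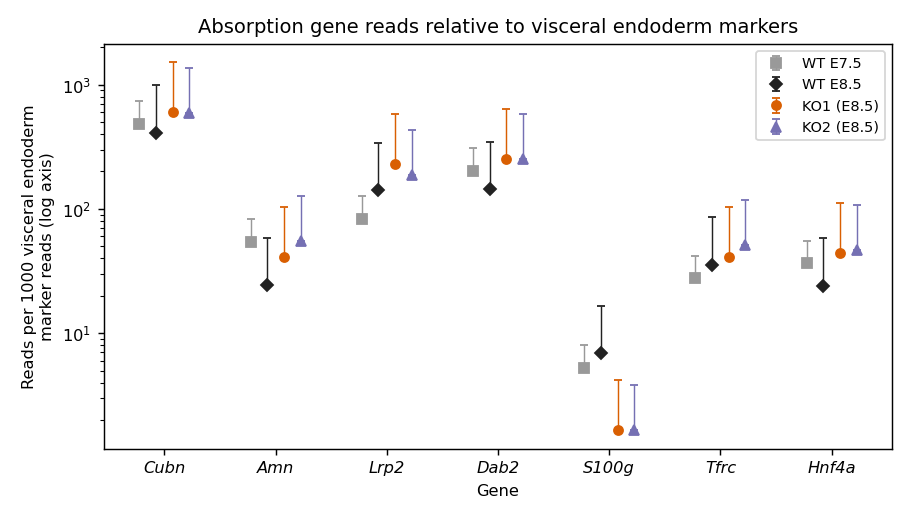
Reads of each of the 7 genes per 1000 reads summed over all 15 visceral endoderm markers, on a log axis, with symbols as for the levels. Bars span the values with each marker left out in turn, and their upper ends are the values without Apob; S100g is at 1.67 and 1.65 in the KO libraries and 6.89 in WT E8.5, while the other genes are higher in the KO libraries than in WT E8.5.

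Ratios between the genes showed the same separation within a library. There were 1.08 S100g reads per 100 Cubn reads in WT E7.5 and 1.68 in WT E8.5, but 0.279 (0.198 to 0.381) in KO1 and 0.279 (0.210 to 0.364) in KO2. Hnf4a had 7.52, 5.87, 7.35 and 7.94 reads per 100 Cubn reads, and Dab2 had 41.5, 35.2, 42.5 and 42.3. For Hnf4a and Dab2 the KO ratios were near WT E7.5 and above WT E8.5. Amn had 11.3 reads per 100 Cubn reads in WT E7.5, 5.90 in WT E8.5, 6.81 in KO1 and 9.24 in KO2, which placed both KO libraries between the stages, KO2 nearer to WT E7.5. Lrp2 had 17.2, 34.3, 38.2 and 31.5 reads per 100 Cubn reads, with both KO libraries near WT E8.5.

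The wider uptake pathway was described with lists of genes chosen by function. Of 31 genes of clathrin endocytosis and recycling, 1 was lower than WT E8.5 by more than 1 in both KO libraries, the lipoprotein receptor gene Vldlr with -1.66 and -1.42, and 0 were higher. The medians were 0.05 and 0.00, close to those over all genes. The other extremes of the list were the clathrin light chain Cltb (0.23 and 1.19) and the neonatal Fc receptor Fcgrt (-0.72 and -0.21). Coat and sorting genes thus stayed on either side of WT E8.5. In RNA of whole embryos such reads can come from any tissue. Neither this list nor the lysosome list therefore gives the level within the visceral endoderm.

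Of 19 lysosome genes, 0 were lower or higher in both KO libraries by more than 1, with medians of 0.19 and 0.11. The lowest were the proteases Lgmn (-0.58 and -0.41) and Ctsl (-0.28 and -0.01), and the highest were the cholesterol transfer gene Npc2 (0.39 and 0.75) and Ostm1 (0.37 and 0.69). Of 12 brush border genes, 0 passed in either direction, with medians of -0.40 and -0.17. The scaffold gene Pdzk1, whose protein holds transporters at the apical membrane, changed by -0.76 and -0.81, while the membrane linker gene Ezr changed by 0.09 and 0.07. Cdhr5 had only 7 to 25 reads in a library.

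Carriers of vitamins and lipids, with receptors, transporters and other genes of vitamin uptake and handling, made a list of 15 genes, of which 14 were measured. Rbp4 (-1.19 and -1.77) and Apom (-1.0 and -1.04, just past the limit) were lower by more than 1 in both KO libraries, and 0 were higher. Ttr, the thyroxine carrier, changed by -0.89 and -1.19, and the folate transporter gene Slc46a1 by 0.68 and 0.41. The medians were -0.08 and -0.22. Rbp4, Apom and Ttr are also on the visceral endoderm list.

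For iron, 15 of 17 genes were measured, 0 were lower by more than 1 in both KO libraries and 2 were higher. These were Tfr2 and Hfe, both with 20 reads or fewer in each library. The transferrin gene Trf, the ligand of the Tfrc receptor, had 2117, 1738, 816 and 1524 reads and changed by -0.54 and -0.18 from WT E8.5, a gene named after its values were seen. The ferroxidase gene Heph changed by -0.21 and -0.81, the ferritin receptor gene Ncoa4 by -0.47 and -0.31, and the ferrireductase gene Steap3 by 0.97 and 2.13. The medians were -0.10 and -0.07.

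For calcium, 16 of 19 transport and S100 genes were measured, and 0 were lower by more than 1 in both KO libraries. S100a4 (0, 4 and 64 reads in WT E8.5, KO1 and KO2) and S100a6 (42, 71 and 534 reads) were higher. Both had many more reads in KO2 than in KO1, and S100a6 had 534 reads in WT E7.5 as well. The exchanger gene Slc8a1 changed by -0.31 and -1.90, and Calb2 had at most 19 reads in a library. The apical channel gene Trpv6, a partner of calbindin in calcium-transporting epithelia and named after its values were seen, had 17, 20, 19 and 20 reads, so little of it was detected in any library. The medians were 0.43 and 0.08.

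For endoderm transcription factors other than Hnf4a, 12 of 14 were measured and 0 passed in either direction against WT E8.5, with medians of 0.39 and 0.34. Sox17, a factor of definitive and visceral endoderm, changed by 0.47 and 0.90, and Cebpa by 0.79 and 2.63 on 5 reads in WT E8.5. Sox7 changed by -0.04 and -0.60, and Nr5a2 had 6 to 26 reads. The list medians of these factors thus lay above WT E8.5, though in whole embryos their reads can also come from other tissues. In every list edgeR called 0 genes in both comparisons. Beside the visceral endoderm markers, DESeq2 called 2 carrier genes against WT E8.5 and 3 against both WT libraries, 2 and 1 primitive erythroid markers, and 1 and 0 trophoblast markers, and 0 in the other lists.

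**Figure D4:**
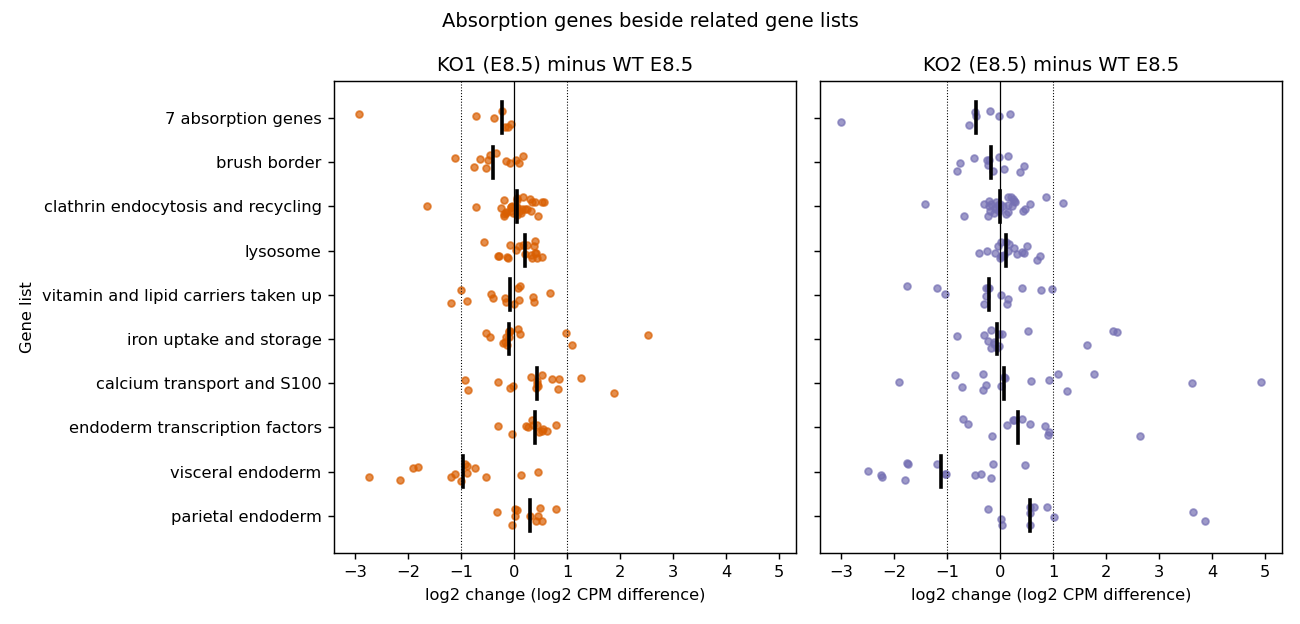
Log2 change from WT E8.5 of each measured gene of the 7 absorption genes and 9 related lists, KO1 on the left and KO2 on the right, on the same axis. Each point is a gene, black bars are list medians and dotted lines mark 1 and -1; the visceral endoderm medians lie at -0.96 and -1.12, those of clathrin endocytosis at 0.05 and 0.00, and the S100g point is lowest among the absorption genes.

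Markers of other tissues that whole embryos can carry along also differed. Trophoblast markers summed to 343 CPM in WT E7.5, 201 in WT E8.5, 452 in KO1 and 869 in KO2, with 2 of 6 measured higher by more than 1 in both KO libraries and Prl2c3, Prl7b1 and Tpbpa at 0 in every library. Hand1 gave most of the sum outside KO2, with 2570, 2229, 3544 and 4028 reads in the order of the libraries. The 2 higher genes, Prl3d1 and Prl2c2, had 3 and 4 reads in KO1 but 4156 and 1400 in KO2. Markers of maternal decidua and uterine natural killer cells summed to 132, 9.60, 19.2 and 149 CPM. Of 9 measured, 6 were higher by more than 1 in both KO libraries, beside 3.44% of all genes. Of these 6, Gzmd, Gzme, Gzmf, Gzmg and Prf1 had only 5, 2, 4, 7 and 3 reads in KO1 and at most 1 in WT E8.5. Prl8a2 had 26 reads in WT E8.5 and 64 in KO1. The sum of the list was high in WT E7.5 and KO2 and low in WT E8.5 and KO1. Definitive endoderm markers summed to 252, 171, 309 and 432 CPM, with 2 of 7 lower and 1 higher. The part of these tissues in the levels of the 7 genes was not tested.

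Patterns were compared over the 4 libraries by the Euclidean distance between log2 CPM values centred on each gene's mean, among 11222 genes with a mean of at least 50 reads, as a description. Nearest to S100g were the fibrinogen genes Fga, at a distance of 0.61, and Fgg, at 0.63, followed by Ddx6 itself at 0.72. Fga had 292, 278, 27 and 57 reads and Fgg 198, 190, 28 and 38. No gene came as close to S100g as the nearest genes of the other 6, whose distances were 0.02 to 0.08. Those were Selo for Cubn, Prss36 for Amn, Fam174b for Lrp2, Rhno1 for Dab2, Sbk1 for Tfrc and Abhd17a for Hnf4a, and small distances are common for genes that vary little. Among the 7 genes, Dab2 and Hnf4a were the closest pair, at 0.13, followed by Cubn and Dab2, at 0.23. S100g was 2.27 to 2.76 away from each of the others.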

How the data were processed

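Polyadenylated RNA of whole embryos was sequenced with a stranded kit in 4 libraries, grouped by the sample labels. The authors deposited unnormalized counts of reads per gene. By their methods and processing notes, reads were trimmed with Cutadapt 2.8, checked with FastQC 0.11.7, aligned to mm10 with HISAT2 2.1.0, sorted with SAMtools 1.9 and counted over exons on the annotated strand with featureCounts 2.0.0. Depth was 8198402 to 12562640 counts per library.

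Counts were scaled with TMM factors over all 24421 genes (0.978 to 1.02). Tests took in the 14393 genes that reached 10 counts in any library. Log2 changes were differences of log2 CPM with a prior count of 2, and a gene was past the fold rule when its change was above 1 or below -1 in both KO libraries, the limit in the study's methods. Two-sided quasi-likelihood F-tests (edgeR 4.0.16, R 4.3.3) compared the KO libraries first with WT E8.5, then with the WT libraries of both stages as 1 group, with Benjamini-Hochberg adjustment over all tested genes and a threshold of 0.05. DESeq2 1.42.0 was the alternative test and gave no adjusted p to 1676 genes against WT E8.5. On simulated counts with 200 of 14393 genes changed by 3 on the log2 scale, at an assumed coefficient of variation of 0.2 between replicates, edgeR recovered 199 against WT E8.5 and called 10 others, and DESeq2 recovered 176 and called 3 others. These recoveries hold for that assumed spread only. They do not show how many changes could be found in the real libraries, whose spread can be larger.

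Intervals are exact Clopper-Pearson 95% intervals and cover only counting error, because they are built from the reads of the compared libraries alone. No molecular identifiers were used and reads can be copies of the same molecule, so the intervals can be too narrow even for counting error. RPKM used exon union lengths of GENCODE M21, where 95.5% of the table's symbols had a single match, and are approximate. The labels do not say that the KO libraries came from separate litters, so p-values measure only the spread between these samples. Promoters came from RefSeq on GRCm38.p6, and matplotlib 3.10.9 with Python 3.11.15 made the figures.

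The 7 genes and all 14 lists were chosen with earlier results of these data known. Genes named are the 7, the 2 highest and 2 lowest by mean change of a list against WT E8.5, list genes past the fold rule and the genes nearest in pattern to each of the 7. Values of some single genes that meet this rule, and 1 of the motifs searched, are not reported here. Trf and Trpv6 fall outside it, as do the markers and list genes given at a count of 0 or under the minimum. Alternatives were DESeq2 size factors, scaling by total count, other count minimums, a prior count of 0.5, a limit of 2, DESeq2, and each library left out in turn.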

Additional observations from a re-analysis of the deposited data

How the results depend on the processing

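Of 97 values recomputed under alternatives, 83 moved by less than the spread between the KO libraries or, for counts, by less than 1.5 times. The other 14 moved further. A change of sign was counted only where the main log2 change was above 1 or below -1. Among these values that was S100g alone, and it kept its sign. The small changes of Hnf4a and Amn did change sign under some settings. S100g was lower by more than 1 in both KO libraries under every scaling and prior count tried and with a limit of 2. The count minimum could not alter log2 changes or their medians, because the scaling factors came from all genes. Those values are among the 83 by construction. The number of genes called by edgeR depended on the settings, being 0 against WT E8.5 but 1 with scaling by total count and 7 with no count minimum. The DESeq2 test called 34 there. Against both WT libraries it was 0, but 32 with the DESeq2 test and 0 to 51 with 1 library left out, 51 being without KO1 and 1 without KO2; the cause was not tested. Over these settings the adjusted p of S100g from edgeR ran from 0.0684 to 1.0 against both WT libraries. The median change of the 7 genes from WT E7.5 was -0.57, and -0.60 with DESeq2 size factors and -0.52 with scaling by total count. The number lower than WT E7.5 by more than 1 was 1 to 2 with a KO library left out, since Amn joined S100g without KO2. The number with both KO values below both WT values was 5, and 3 with scaling by total count, an alternative chosen after seeing the data. The mean change of Amn from WT E8.5 was -0.01 with DESeq2 size factors.

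The edgeR test against WT E8.5 without a KO library was not run, since 1 library a group leaves no residual degrees of freedom. No paired analysis was possible because the WT groups hold 1 library each and share fewer than 2 replicate numbers with the KO group. With 39 and 54 reads of S100g in the KO libraries, counting error alone spans about 1 on the log2 scale for its change.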
